A study of Mus musculus with 18 samples.

Results

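The H/ACA box small nucleolar RNAs (snoRNAs) were taken as the rows of the total RNA table whose name starts with Snora, which gave 33 of 23219 rows. The libraries came from CD4+ T cells of mice of strain C57BL6, taken from lymph nodes and spleen, and the sample names give 3 groups: naive, Hopx-low and Hopx-high. Hopx is a small homeodomain protein, and the labels give no gate for the low and high groups, no age and no sex. For all groups alike, the labels state that mice had received chimeric antibodies, which bring an antigen to dendritic cells, by intraperitoneal injection 5 days ahead of cell collection. Each group had 3 total RNA libraries and 3 small RNA libraries, and the labels do not say whether the libraries of a group came from separate mice, so p-values measure the spread between these libraries.

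H/ACA snoRNAs are short nuclear RNAs named for 2 conserved sequence boxes. Each joins the proteins dyskerin (Dkc1), Nop10, Nhp2 and Gar1 and guides dyskerin to uridines that it turns into pseudouridine, most of them in ribosomal RNA. In mammals they are usually cut out of introns of host genes, many of which encode ribosomal proteins or translation factors, so that the amount of a snoRNA depends on transcription of its host, on processing and on its own stability. T cells that leave rest raise ribosome production, which gives these RNAs a place in T-cell biology.

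A value below is a level, in bases covered by reads per megabase covered in the library. Depth was 105 to 329 megabases per total RNA library, and Hopx-low replicate 1 and Hopx-high replicate 3, the shallowest, gave 17.98% and 18.9% of their bases to Lars2, against 0.525% to 6.55% in the other 7. Hopx itself was at 1.76, 0 and 1.15 in naive libraries 1 to 3, at 5.90, 7.49 and 7.59 in Hopx-low libraries and at 34.2, 26.1 and 23.1 in Hopx-high libraries, in the order of the labels. The 4 CD4 T-cell markers in the table summed to 2144 to 2462 in naive, 1582 to 2146 in Hopx-low and 1782 to 2116 in Hopx-high libraries. In each Hopx group 1 of the 4 was called lower than naive (limma, adjusted p = 0.038 and 0.021), where 3.64% and 15.1% of all features were.

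Of the 33 H/ACA snoRNAs, 32 had bases in at least 1 library and passed the filter for testing, which asked for a level of 1 or more in 3 or more libraries. The exception was Snora35, which lies within the serotonin receptor gene Htr2c and was at 0 in all 9 libraries, as was Htr2c. The 32 measured snoRNAs lie on 18 chromosomes within 27 first host genes, and all 33 names matched RefSeq's genes of GRCm38.p6 (the assembly called mm10). The RefSeq table gives the span of each gene but no strand and no exons, so a host is the gene whose span holds the snoRNA, and whether the snoRNA is intronic was not read from it.

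As a class, H/ACA snoRNAs were lower in both Hopx groups than in naive cells. They summed to 13567, 11671 and 6949 in naive libraries 1 to 3, to 6764, 4145 and 4220 in Hopx-low libraries and to 5398, 2508 and 3904 in Hopx-high libraries. The means were 10729 ± 3408, 5043 ± 1491 and 3937 ± 1445 (SD, n = 3 each), so the Hopx-low mean was 47.0% and the Hopx-high mean 36.7% of the naive mean. On this scale both Hopx groups lay wholly below the naive group, although naive replicate 3 sat just above Hopx-low replicate 1. The Hopx groups overlapped with each other. The gap to Hopx-low depends on the totals, since Lars2 took 17.98% of bases in Hopx-low replicate 1 and 0.525% in naive replicate 3. With Lars2 left out of the totals these libraries change order, so the Hopx-low and naive groups overlap, while the Hopx-high libraries stay below naive. Since these are bulk libraries, fewer cells rich in a snoRNA and less of it per cell cannot be told apart.

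The summed levels of the other families of small nucleolar and Cajal body RNAs did not separate the groups in this way. Single C/D box snoRNAs moved in both directions, which a sum does not show. Of 60 tested, limma called 10 higher and 6 lower in Hopx-high against naive cells, beside 8.41% and 15.1% of all features. In Hopx-low cells these were 2 and 0, beside 4.75% and 3.64%. The 69 C/D box snoRNAs, which guide ribose methylation, summed in Hopx-low and Hopx-high libraries to 97.1% and 81.6% of the naive mean, and the 8 small Cajal body RNAs (scaRNAs), which guide modification of spliceosomal RNAs, to 114% and 119%, with overlapping groups in each case. Snora81 alone held 34.4% ± 2.11 of H/ACA bases in naive libraries, 22.8% ± 2.00 in Hopx-low cells and 18.8% ± 2.21 in Hopx-high (SD, n = 3 each). Without Snora81 the summed H/ACA level was 54.8% of the naive mean in Hopx-low libraries, with overlapping groups, and 44.9% in Hopx-high libraries, which all remained below the naive ones.

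**Figure D1:**
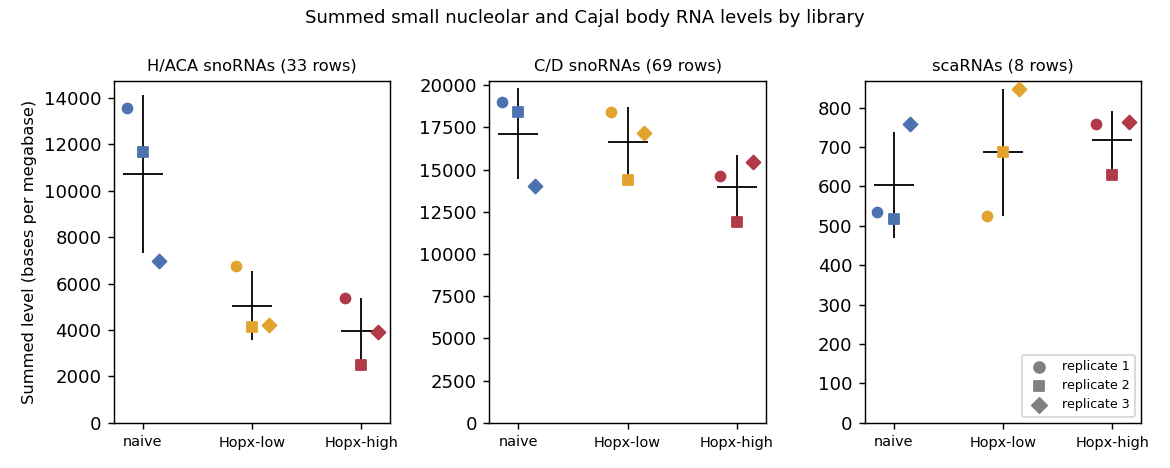
Summed level, in bases per megabase covered, of H/ACA snoRNAs, C/D snoRNAs and scaRNAs in each total RNA library; points are libraries, with the mean and SD of each group of 3 drawn as a black bar and line, and each axis starts at 0. The naive libraries lie above all Hopx libraries for H/ACA snoRNAs, from 6949 upward, and the groups overlap for the other families. With Lars2 left out of the totals, the naive and Hopx-low groups overlap for H/ACA snoRNAs as well.

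Against naive cells, 5 of the 32 tested H/ACA snoRNAs were called lower and 0 higher in Hopx-low cells (limma, adjusted p below 0.05 over all 11320 features tested). Of all features, 3.64% were called lower and 4.75% higher in that comparison. In Hopx-high cells 16 were called lower and 1 higher, against 15.1% and 8.41% of all features. The 5 lower in Hopx-low cells (Snora3, Snora23, Snora34, Snora69 and Snora70) were among the 16 lower in Hopx-high cells, and the comparisons share their naive libraries.

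The median log2 fold change of the 32 snoRNAs was -1.04 in Hopx-low cells, beside -0.16 for all features tested, and -1.65 in Hopx-high cells, beside -0.29. Values were below 0 for 30 of 32 in Hopx-low cells and 29 of 32 in Hopx-high cells, where 7143 and 7567 of all 11320 features were. The Hopx-low libraries lay wholly below the naive ones for 11 of 32 and above them for 0, where 18.2% and 10.9% of all features did so. The Hopx-high libraries lay wholly below for 17 and above for 1, where 26% and 13.2% of all features did so.

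Between the Hopx groups no H/ACA snoRNA was called in either direction by limma, the one tool run. An unadjusted limma p below 0.05 was found for 4 H/ACA snoRNAs, and for 1500 of all 11320 features tested. Of all features 0.919% were called lower and 1.22% higher in Hopx-high than in Hopx-low cells. The groups did not overlap for Snora43 alone, higher in Hopx-high libraries, and for 0 snoRNAs lower, where 6.52% and 10.2% of all features did so. The median log2 fold change was -0.39, beside -0.10 for all features, and this order turned on single libraries: it was -0.07 beside -0.19 without Hopx-high replicate 2 and -0.13 beside -0.23 without Hopx-low replicate 1. Without Hopx-high replicate 1 it was -0.62, beside -0.08.

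**Figure D2:**
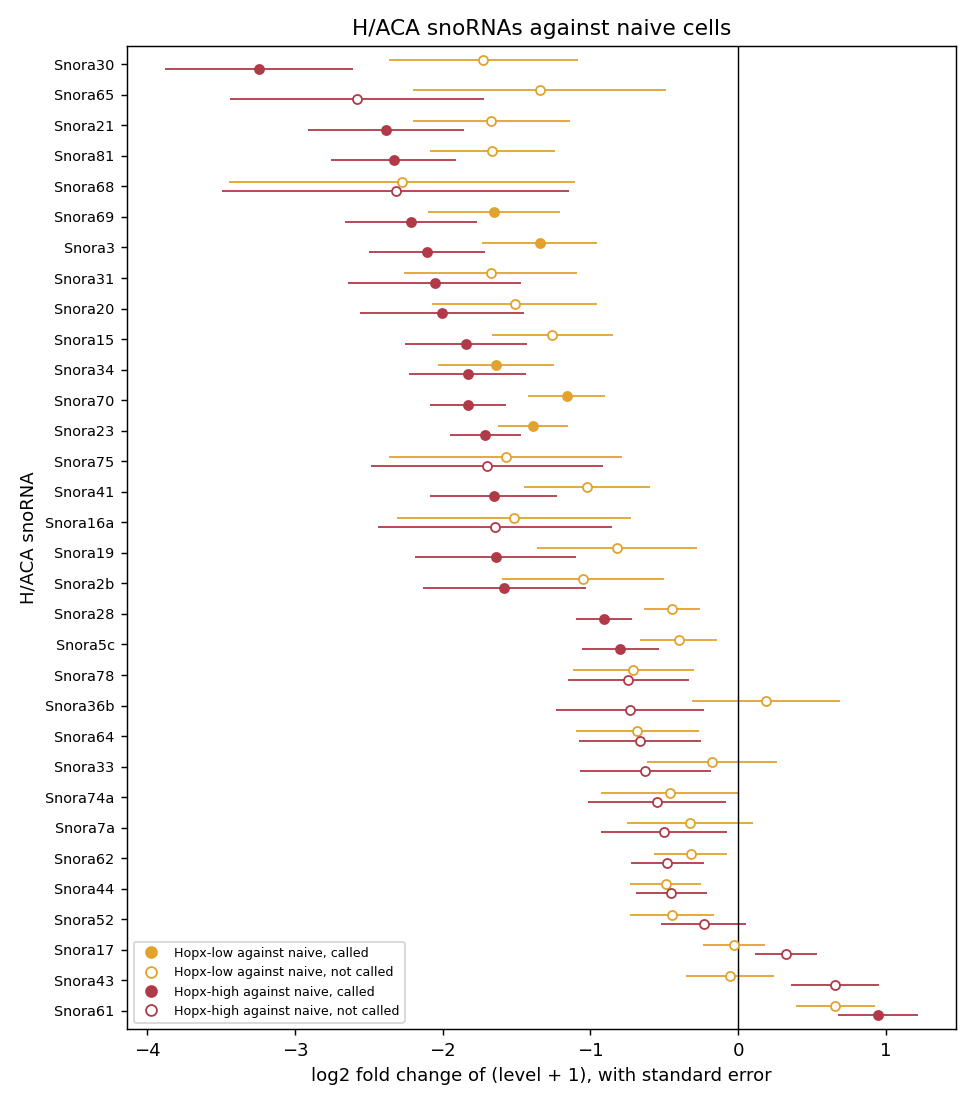
Log2 fold change of (level + 1) with its standard error for each of the 32 tested H/ACA snoRNAs, in Hopx-low and Hopx-high against naive cells; filled points passed an adjusted p of 0.05 and open points did not. Values run from -3.24 for Snora30 to 0.95 for Snora61 in Hopx-high cells, with 29 of 32 below 0, where 7567 of all 11320 features were.

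Markers of other cell types moved with the groups. Markers of B cells, 8 of 8 in the table, summed to 8.98 to 42.1 in naive libraries, 9.53 to 12.3 in Hopx-low cells and 47.2 to 64.6 in Hopx-high libraries, with Cd79b and Fcer2a called higher in Hopx-high than naive cells. Monocyte and macrophage markers, 6 of 7 in the table, summed to 10.3 to 32.8, 8.84 to 26.2 and 40.5 to 94.8, with Lyz2 called higher. CD8 T-cell markers, both in the table, summed to 126 to 149, 52.6 to 84.0 and 39.3 to 45.2, with Cd8b1 lower in both Hopx groups. Markers of NK cells and neutrophils were low, with Klra8, S100a8 and Elane at 0 in every library. Those of NK cells summed to 0 in naive, 0 to 0.461 in Hopx-low and 1.29 to 3.98 in Hopx-high libraries, and 0 of them were tested. Those of neutrophils summed to 0.538 to 5.68, 0 and 0 to 2.99 in the same order. Dendritic cell markers summed to 0.329 to 2.25 in naive, 0 to 5.89 in Hopx-low and 1.94 to 8.06 in Hopx-high libraries. Xcr1, one of them, and Pf4, a platelet marker, were at 0 in every library. Platelet markers, 3 of 3 in the table, summed to 3.74 to 4.03 in naive, 0.528 to 2.49 in Hopx-low and 0.486 to 1.08 in Hopx-high libraries, and the 1 tested, Itga2b, was called lower in Hopx-high than naive cells (-1.36 ± 0.48, adjusted p = 0.043). The part of these cells in the snoRNA values was not tested.

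Snora81, whose human counterpart guides pseudouridylation of the large-subunit ribosomal RNA, was the most covered H/ACA snoRNA. It lies at chr16:23110770-23110933 within Eif4a2, which encodes a helicase of translation initiation. Its level was 4353, 4231 and 2413 in naive libraries, 1698, 887 and 925 in Hopx-low libraries and 1147, 424 and 717 in Hopx-high libraries. Both Hopx groups lay below all naive libraries. The log2 fold change was -2.33 ± 0.42 (SE, adjusted p = 0.0057) in Hopx-high cells, while in Hopx-low cells the value of -1.66 ± 0.42 did not pass (adjusted p = 0.052). Per 100 bases of its length, it ranked first in naive cells, at a mean of 2235, and in Hopx-low cells, at 713, and second in Hopx-high cells, at 465.

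Snora23, a guide to the large-subunit RNA in humans, lies at chr7:110046364-110046547 within Ipo7, a nuclear import receptor that also carries ribosomal proteins. Its level was 539, 552 and 331 in naive libraries, 199.6, 166 and 164 in Hopx-low libraries and 210.1, 98.2 and 134 in Hopx-high libraries. The naive libraries stood above all others, and the Hopx groups overlapped. The log2 fold changes were -1.39 ± 0.24 (adjusted p = 0.0004) and -1.71 ± 0.24 (adjusted p = 1.4e-05), the latter the smallest adjusted p of the class. Ipo7 was not called, at -0.46 ± 0.34 and -0.32 ± 0.34.

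Snora65 and Snora21, also guides to the large-subunit RNA in humans, lie within the ribosomal protein genes Rpl12 and Rpl23. Snora65 was at 2436, 1644 and 832 in naive libraries, 1545, 323 and 407 in Hopx-low libraries and 622, 135 and 184 in Hopx-high libraries. Its Hopx-high libraries lay below all naive ones, yet with this spread the log2 fold change of -2.58 ± 0.86 did not pass (adjusted p = 0.079). Snora21 was at 822, 506 and 299 in naive libraries, 190.4, 147 and 136 in Hopx-low libraries and 160.3, 43.3 and 122 in Hopx-high libraries. Both Hopx groups lay below the naive one for Snora21, and the call was made in Hopx-high cells alone (-2.38 ± 0.53, adjusted p = 0.015; in Hopx-low cells -1.67 ± 0.53, adjusted p = 0.11). Without naive replicate 2 its adjusted p was 0.055.

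Snora68 varied most among naive libraries, at 686, 360.0 and 59.8, an 11.5-fold range. It was at 105, 37.5 and 31.6 in Hopx-low libraries and 165, 23.5 and 28.8 in Hopx-high libraries, so all groups overlapped, and a log2 fold change of -2.32 ± 1.17 in Hopx-high cells did not pass (adjusted p = 0.21). Snora7a, within Rpl32, and Snora74a, within the noncoding gene Snhg4, were well covered and were not called. Snora7a was at 556, 481 and 584 in naive libraries, 208, 721 and 524 in Hopx-low cells and 322, 303 and 562 in Hopx-high libraries. Snora74a was at 683, 803 and 386, at 759, 248 and 430.5 and at 626, 319.9 and 336 in the same order. For both RNAs, large-subunit guides in humans, the 3 groups overlapped, with log2 fold changes of -0.50 ± 0.43 and -0.55 ± 0.47 in Hopx-high cells.

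Snora70 and Snora28, whose human counterparts guide the small-subunit ribosomal RNA, were called lower. Snora70, at chrX:74272492-74272620 within Rpl10, was at 138, 129 and 105 in naive libraries, 67.8, 38.1 and 62.6 in Hopx-low libraries and 38.0, 24.6 and 41.7 in Hopx-high libraries. The naive libraries lay above all others. The log2 fold changes were -1.16 ± 0.26 (adjusted p = 0.0052) and -1.83 ± 0.26 (adjusted p = 1.6e-05). Snora28, within the translation factor gene Eif5, was the steadiest among naive libraries, at 367, 354 and 311, and was at 304, 257 and 202 in Hopx-low cells and 214, 149 and 189.9 in Hopx-high libraries. Both Hopx groups lay below the naive one, and the fall was called in Hopx-high cells (-0.91 ± 0.19, adjusted p = 0.0013) and not in Hopx-low cells (-0.45 ± 0.19, adjusted p = 0.16). Snora62, within Rpsa, and Snora44, within Snhg12, were not called, at -0.48 ± 0.25 and -0.45 ± 0.24 in Hopx-high cells. The Hopx-high libraries of Snora62, at 46.9, 32.2 and 44.7, nonetheless lay below its naive ones, at 52.9, 51.3 and 68.9.

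Snora30 had the largest fall in Hopx-high cells, at -3.24 ± 0.64 (adjusted p = 0.0070). It lies at chr7:127527897-127528003 within Srcap, which encodes a chromatin remodelling ATPase and has no row in the table. Its level was 196, 209 and 95.6 in naive libraries, 104, 27.9 and 35.5 in Hopx-low libraries and 36.3, 8.02 and 13.0 in Hopx-high libraries. The Hopx-high libraries lay below all naive ones, while a Hopx-low library exceeded the lowest naive one. In Hopx-low cells the value of -1.73 ± 0.64 did not pass (adjusted p = 0.15).

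Snora3, Snora69 and Snora34 completed the set called lower against naive in both groups. Snora3, within Rpl27a, was at 31.4, 24.4 and 26.2 in naive libraries, 8.92, 13.6 and 8.41 in Hopx-low cells and 9.57, 2.96 and 5.71 in Hopx-high libraries. Snora69, within Rpl39 on the X chromosome, was at 129, 118 and 68.3, at 55.2, 22.8 and 24.9 and at 47.4, 10.9 and 17.6 in the same order. For both, the naive libraries stood above all others. Their log2 fold changes were -1.34 ± 0.39 (adjusted p = 0.034) and -1.65 ± 0.45 (adjusted p = 0.031) in Hopx-low cells, and -2.11 ± 0.39 (adjusted p = 0.0004) and -2.22 ± 0.45 (adjusted p = 0.0021) in Hopx-high cells. In Hopx-low cells these calls rested on single libraries: Snora3 passed only with all of naive replicates 1, 2 and 3 and Hopx-low replicates 1 and 3 present (adjusted p from 0.070 to 0.15 without one of them), and Snora69 only with naive replicates 1 and 2 and Hopx-low replicates 2 and 3 present (0.11 to 0.14). Snora34, described below with a microRNA, lost its Hopx-low call without naive replicate 1 (adjusted p = 0.070).

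The remaining snoRNAs called lower in Hopx-high cells differed widely in level. Snora31 lies within Tpt1, which encodes an abundant translationally controlled protein. It was at 450.0, 400.0 and 162 in naive libraries, 157, 86.3 and 64.3 in Hopx-low cells and 142, 41.2 and 67.0 in Hopx-high libraries, with a log2 fold change of -2.06 ± 0.58 in Hopx-high cells (adjusted p = 0.041). Snora15 and Snora20 lie within Cct6a and Tcp1, which encode subunits of the same cytosolic chaperonin, and fell by 1.85 and 2.01 on the log2 scale (adjusted p = 0.0023 and 0.012). Snora41 lies within the elongation factor gene Eef1b2, Snora19 within the initiation factor gene Eif3a, Snora5c within Tbrg4 and Snora2b within Kansl2, and they fell by 1.66, 1.64, 0.80 and 1.58 (adjusted p = 0.0074, 0.032, 0.030 and 0.041). Snora20 and Snora19 were the least covered, with Hopx-high levels of 0.515, 0.0465 and 0.274 and of 3.07, 0.283 and 1.60. Their lowest Hopx-high libraries held 12 and 73 covered bases, or 0.197 and 1.30 times the length of the snoRNA, which is near the floor. At levels this close to the pseudocount of 1 a log2 fold change understates the ratio, and the ratio itself rests on few bases.

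Several of these calls depended on single libraries. Snora31 did not pass without naive replicate 1 or 2, Hopx-low replicate 2 or Hopx-high replicate 2 or 3 (adjusted p from 0.079 to 0.13), and Snora2b and Snora19 not without naive replicate 1 or 2 or Hopx-high replicate 2 or 3 (0.076 to 0.23 and 0.066 to 0.14). Snora5c did not pass without naive replicate 1 or 3 or Hopx-high replicate 2 (0.069 to 0.17), Snora20 not without naive replicate 1 or 2 (0.085 and 0.057) and Snora41 not without naive replicate 1 (0.052). The calls of Snora3, Snora15, Snora23, Snora28, Snora30, Snora34, Snora69, Snora70 and Snora81, 9 of the 17 in Hopx-high cells, passed whichever library was left out, as did Snora23 and Snora70 in Hopx-low cells. Of these, Snora69 did not pass in Hopx-high cells under upper-quartile scaling or quantile normalization (adjusted p = 0.055 and 0.064), nor Snora70 in Hopx-low cells without trend or robust settings (adjusted p = 0.051).

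A further 5 snoRNAs were tested and not called in any comparison. Snora75, within Ncl, which encodes the nucleolar protein nucleolin, was at 190.4, 141 and 67.2 in naive libraries, 86.5, 27.9 and 26.6 in Hopx-low libraries and 88.8, 14.1 and 38.6 in Hopx-high libraries. Its log2 fold change of -1.70 ± 0.79 in Hopx-high cells came with overlapping groups (adjusted p = 0.17). Snora64 and Snora78 both lie within Rps2, and Snora78 also within the noncoding gene Snhg9, so they share a host; they were at -0.66 ± 0.41 and -0.74 ± 0.41 in Hopx-high cells (adjusted p = 0.27 and 0.19). Snora52, within Rplp2, and Snora33, within Rps12, were at -0.23 ± 0.29 and -0.63 ± 0.44 (adjusted p = 0.58 and 0.31). For all of these the naive and Hopx-high groups overlapped.

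**Figure D3:**
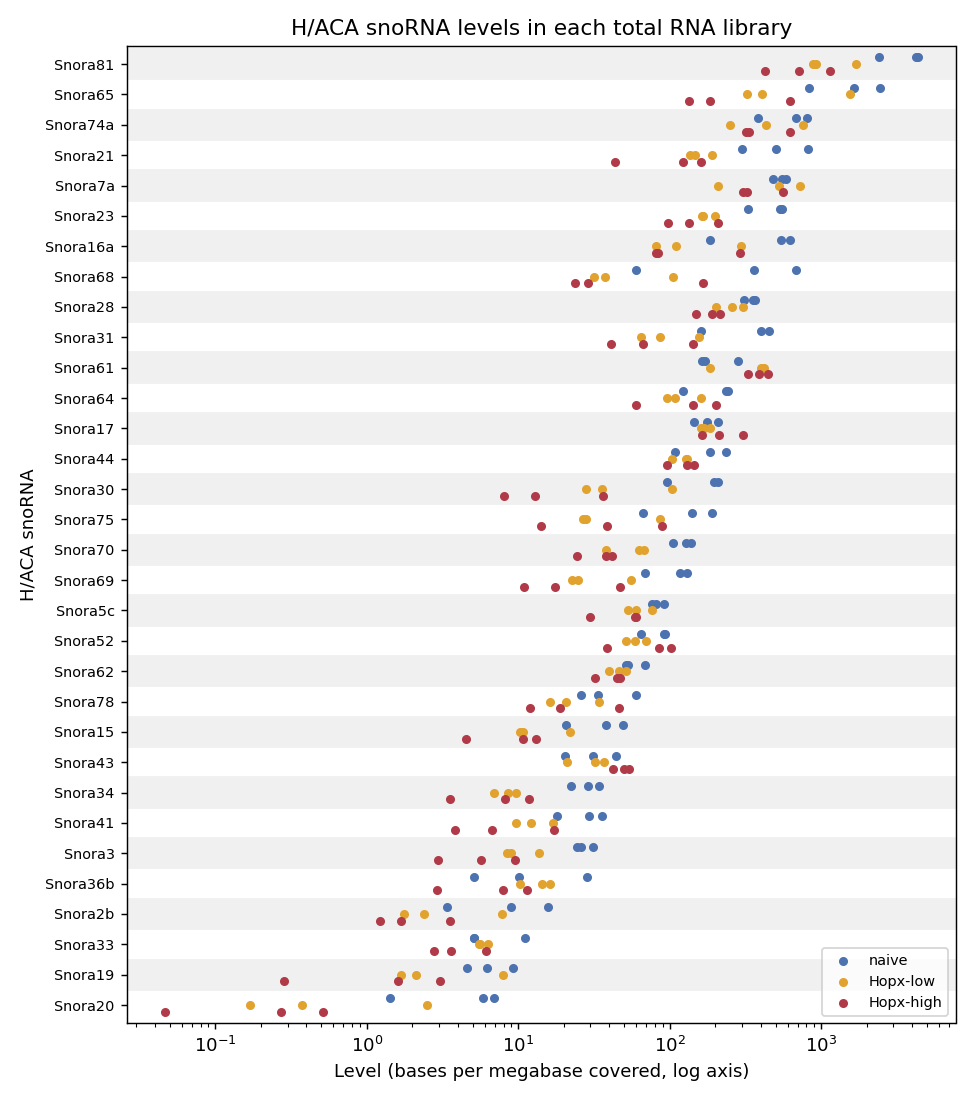
Level of each measured H/ACA snoRNA in each of the 9 total RNA libraries, in bases per megabase covered on a log axis, ordered by the naive mean; points are libraries and colours are groups. Snora81, at 2413 to 4353 in naive libraries, is at the top and Snora20 at the bottom. All naive points lie to the right of all Hopx-high points in 17 of 32 rows, and of all Hopx-low points in 11. Of all features, 26% and 18.2% did so.

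The 3 snoRNAs with a log2 fold change above 0 in Hopx-high against naive cells lie within the noncoding host genes Snhg12 and Snhg7. Snhg12, on chromosome 4, holds Snora16a, Snora44 and Snora61, which therefore share a host. Snora61, at chr4:132310307-132310368, was the 1 snoRNA called higher: its level was 171, 162 and 284 in naive libraries, 185, 401 and 422 in Hopx-low libraries and 447, 329 and 388 in Hopx-high libraries. The Hopx-high libraries lay above all naive ones and overlapped with the Hopx-low ones, and the log2 fold change was 0.95 ± 0.27 (adjusted p = 0.016). The call did not pass without naive replicate 1 or 2 or Hopx-high replicate 1 or 3 (adjusted p from 0.054 to 0.094). In Hopx-low cells the value was 0.66 ± 0.27 (adjusted p = 0.15).

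Snora16a, in the same host, had values on the other side of 0. Its level was 627, 541 and 183 in naive libraries, 294, 81.0 and 110.1 in Hopx-low cells and 293, 81.3 and 83.4 in Hopx-high libraries, with a log2 fold change of -1.65 ± 0.79 in Hopx-high cells (adjusted p = 0.19). Snora44 was at 234, 186 and 109, at 129, 127 and 103 and at 131, 96.6 and 146 in the same order. For both, the groups overlapped. Snhg12 itself was at 28.0, 39.2 and 29.1 in naive libraries, 14.0, 22.2 and 27.3 in Hopx-low cells and 17.8, 12.6 and 19.2 in Hopx-high libraries and was called lower in Hopx-high cells (-0.92 ± 0.32, adjusted p = 0.040). The ratio of Snora61 to Snhg12 was 6.68 ± 2.85 in naive libraries, 15.6 ± 2.46 in Hopx-low cells and 23.8 ± 3.12 in Hopx-high libraries (SD, n = 3 each), with no overlap between any 2 groups. Per 100 bases, Snora61 ranked 6 in naive cells, at 332, 3 in Hopx-low cells, at 542, and first in Hopx-high cells, at 626.

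Snhg7, on chromosome 2, holds Snora17 and Snora43, and neither was called. Snora17 was at 210.1, 175 and 145 in naive libraries, 169.8, 162 and 184 in Hopx-low cells and 211, 164 and 303 in Hopx-high libraries. Snora43 was at 44.5, 31.0 and 20.4, at 21.1, 36.9 and 32.1 and at 53.9, 42.3 and 50.2, so that its Hopx-high libraries lay above all Hopx-low ones and overlapped with naive. The log2 fold changes in Hopx-high against naive cells were 0.32 ± 0.21 (adjusted p = 0.27) and 0.65 ± 0.30 (adjusted p = 0.11). Snhg7 was at -0.51 ± 0.44 and was not called.

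**Figure D4:**
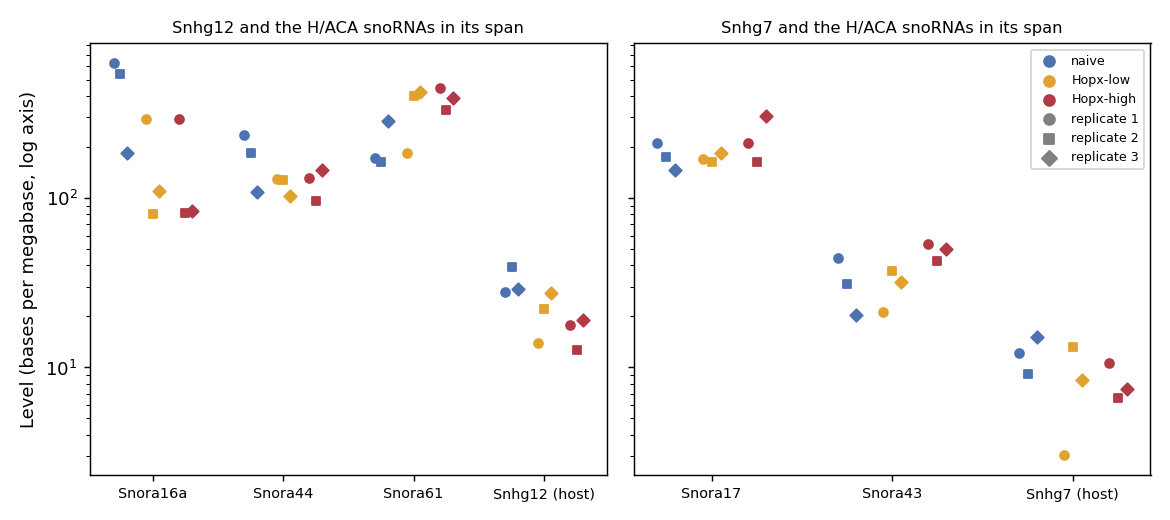
Levels of the H/ACA snoRNAs within Snhg12 and Snhg7 and of these host genes in each library, in bases per megabase on a log axis; marker shape gives the replicate number and colour the group. Snora61 lies at 329 to 447 in Hopx-high libraries, above all naive ones and overlapping with Hopx-low, while the groups overlap for Snora16a and Snora44.

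Grouped by host, 12 tested snoRNAs lie first within ribosomal protein genes, 4 within translation factor genes, 10 within other protein-coding genes and 6 within noncoding genes. In Hopx-high cells 4 of 12, 4 of 4 and 8 of 10 of the first 3 classes were called lower, where 15.1% of all features were, with medians of -1.29, -1.65 and -1.77 on the log2 scale. Of the 6 in noncoding hosts, 0 were called lower and 1 higher, with a median of -0.06. Differences between these classes were not tested.

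The median change of the host genes was smaller than that of the snoRNAs. The 27 tested hosts include Snhg9, the second host of Snora78, and not Srcap, so they are not the same set as the 27 first hosts. Of these 27 tested hosts, 3 were called lower in Hopx-low cells (Eif4a2, Eif5 and Tpt1) and 9 in Hopx-high cells. None was called higher in either, where 3.64% and 15.1% of all features were called lower. The host medians of -0.22 and -0.37 (-0.26 and -0.40 over the 26 tested first hosts) lay close to those of all features, -0.16 and -0.29. Eif4a2 was at 109, 117 and 94.5 in naive libraries, 39.1, 50.6 and 65.9 in Hopx-low cells and 31.5, 48.1 and 44.0 in Hopx-high libraries, a fall of 1.05 and 1.37 on the log2 scale (adjusted p = 0.0069 and 0.00026). Tpt1 fell by 0.86 and 1.22 (adjusted p = 0.0046 and 4.9e-05). Paired with their first host where it was tested, the log2 fold change of 25 of 31 snoRNAs in Hopx-low cells and 26 of 31 in Hopx-high cells lay below that of the host. Of the 15 snoRNAs called lower in Hopx-high cells with a tested host, 6 had a host that was also called lower and 9 had a host that was not called. Of the 5 in Hopx-low cells, 0 had a called host.

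Across the 31 pairs the log2 fold changes of snoRNA and host were weakly related, with Spearman's rho of 0.17 in Hopx-low cells and 0.28 in Hopx-high cells, as a description across genes that share libraries and, in part, hosts. The ratio of snoRNA to host lay wholly below the naive libraries for 9 and above them for 3 of the 31 pairs in Hopx-high cells (7 and 2 in Hopx-low cells). Of the levels of all features, 26% and 13.2% did so in Hopx-high cells and 18.2% and 10.9% in Hopx-low cells, which is near these counts. The share over ratios of other gene pairs was not computed. Snora81 shows the spread of this ratio: 40.1, 36.0 and 25.5 in naive libraries, 43.4, 17.5 and 14.1 in Hopx-low cells and 36.4, 8.81 and 16.3 in Hopx-high libraries, with overlapping groups. For Snora23 the ratio to Ipo7 was 28.2 ± 9.71, 15.04 ± 4.80 and 11.5 ± 5.86 (SD, n = 3 each), and both Hopx groups lay below the naive one.

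**Figure D5:**
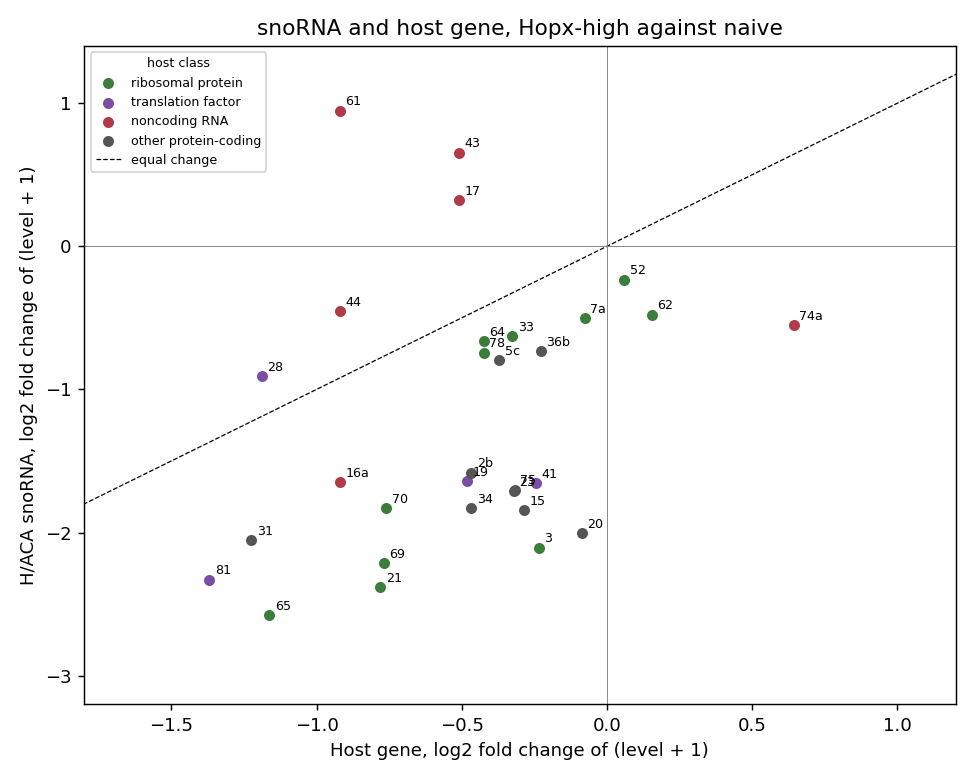
Log2 fold change of each H/ACA snoRNA (vertical axis, numbered without the prefix Snora) against that of its first host gene (horizontal axis) in Hopx-high against naive cells; colours give the class of host and the dashed line marks equal change. The pair of Snora68 is not drawn; of the 30 pairs drawn, 25 lie below the line.

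Snora36b, Snora34 and Snora19 overlap microRNA hairpins, which were measured in the small RNA libraries; that table has no Snora row. Snora36b, within Rab3gap2 on chromosome 1, shares 64 of the 69 bases of the Mir664 hairpin (chr1:185242975-185243043, plus strand). Snora34, within Kansl2, shares 73 of the 117 bases of the Mir1291 hairpin (chr15:98519762-98519878, minus strand), of which 7 belong to the mature miR-1291. The Mir3084-2 hairpin (chr19:60774329-60774397, minus strand) holds all 56 bases of the RefSeq span of Snora19. The RefSeq sequences are shown to place the snoRNA within each hairpin; capitals in a hairpin mark bases inside the snoRNA span, and capitals in a mature form mark its seed, bases 2 to 8. No seed is shared between them.
Mir664 hairpin: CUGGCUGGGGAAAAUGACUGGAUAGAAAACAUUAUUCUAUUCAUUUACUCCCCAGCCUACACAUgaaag
miR-664-5p: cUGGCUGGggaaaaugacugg
miR-664-3p: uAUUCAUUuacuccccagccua
Mir1291 hairpin: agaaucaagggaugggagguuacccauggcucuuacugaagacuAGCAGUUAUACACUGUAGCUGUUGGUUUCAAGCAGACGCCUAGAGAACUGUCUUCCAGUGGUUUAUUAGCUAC
miR-1291: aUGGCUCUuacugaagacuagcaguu
Mir3084-2 hairpin: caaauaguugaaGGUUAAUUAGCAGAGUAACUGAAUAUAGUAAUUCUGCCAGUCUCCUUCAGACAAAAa
miR-3084-5p: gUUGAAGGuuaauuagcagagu
miR-3084-3p: uUCUGCCAgucuccuucagac

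Snora34 was called lower in both Hopx groups, while Mir1291, whose hairpin overlaps it in part, was not called. Snora34, in total RNA, was at 34.0, 28.9 and 22.3 in naive libraries, 9.67, 6.87 and 8.56 in Hopx-low cells and 11.8, 3.56 and 8.23 in Hopx-high libraries, with the naive libraries above all others and log2 fold changes of -1.64 ± 0.39 (adjusted p = 0.0092) and -1.83 ± 0.39 (adjusted p = 0.0017). Mir1291, in small RNA, was at 166, 678 and 234, at 260.5, 166 and 169 and at 194, 127 and 487, with overlapping groups and no call (adjusted p = 0.66 and 0.71). Of the 510 small RNA features tested, 13.7% were called in Hopx-low against naive, 31% in Hopx-high against naive and 12.5% between the Hopx groups. The difference between the assays was not tested.

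Snora36b was not called in total RNA, at 10.1, 5.10 and 28.5 in naive libraries, 10.3, 16.2 and 14.3 in Hopx-low cells and 2.92, 7.98 and 11.4 in Hopx-high libraries. Mir664 was at 195, 631 and 263, at 185, 178 and 115 and at 263, 123 and 312 in small RNA libraries, and was not called (adjusted p = 0.19 and 0.43). Snora19 was at 9.25, 6.18 and 4.62 in naive and 7.91, 2.12 and 1.69 in Hopx-low libraries. Mir3084-2 was at 7.66, 63.6 and 31.6 in naive libraries, 5.89, 5.08 and 1.96 in Hopx-low cells and 61.0, 6.80 and 21.2 in Hopx-high libraries. Its Hopx-low libraries lay below all naive ones without a call (-2.40 ± 0.87, adjusted p = 0.090). Naive replicate 1, at 7.66, was only just above Hopx-low replicate 1, at 5.89. With a depth of 11.6 to 36.2 megabases per small RNA library, such levels rest on few bases. Naive replicate 2 was the highest naive library for all 3 microRNAs.

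The proteins of the H/ACA particle were not called in any of the 3 comparisons. Dkc1, the pseudouridine synthase, was at 24.3, 18.1 and 15.6 in naive libraries, 13.6, 15.6 and 14.6 in Hopx-low cells and 5.16, 20.9 and 12.5 in Hopx-high libraries (-0.36, adjusted p = 0.63, and -0.72, adjusted p = 0.19). Nhp2 came nearest to a call, in Hopx-low cells, at a log2 fold change of 0.78 (adjusted p = 0.054), with Hopx-low libraries at 103, 79.4 and 85.2 above naive ones at 44.3, 53.9 and 56.3. Gar1 and Nop10 were at 0.43 and -0.40 in Hopx-high cells. Of 6 tested assembly factors, Nufip1, an adaptor in snoRNA-protein assembly, was called lower in Hopx-high cells, at 14.4, 16.5 and 17.1 in naive and 4.83, 10.3 and 6.64 in Hopx-high libraries (-1.09 ± 0.36, adjusted p = 0.034). This count is near the 15.1% of all features called lower in that comparison. Naf1 and Shq1, which chaperone dyskerin and the early particle, and the helicases Ruvbl1 and Ruvbl2 were not called.

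Terc, the telomerase RNA, ends in an H/ACA domain bound by the same proteins, and was called higher in Hopx-high cells. It was at 10.6, 7.32 and 11.8 in naive libraries, 19.2, 15.5 and 22.004 in Hopx-low cells and 21.6, 23.4 and 23.2 in Hopx-high libraries. The naive libraries lay below all others, and the log2 fold change was 1.14 ± 0.32 in Hopx-high cells (adjusted p = 0.013) and 0.88 ± 0.32 in Hopx-low cells (adjusted p = 0.10). Tert and Wrap53, its protein partners in telomerase, were not called.

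Among the wider machinery, 7 of 43 nucleolar and ribosome assembly genes were called lower and 0 higher in Hopx-high against naive cells, with a median of -0.50. In Hopx-low against naive cells 1 was called higher and 0 lower, with a median of -0.01, where 4.75% and 3.64% of all features were called. RNA polymerase I genes gave 3 of 15 lower in Hopx-high cells, among them Polr1a, its largest subunit (-1.04 ± 0.26, adjusted p = 0.0051). The stand-alone pseudouridine synthases, which need no guide RNA, gave 2 of 12 lower, Rpusd2 and Rpusd4. With 15.1% of all features called lower in Hopx-high against naive cells, the call counts of these 3 lists are near the background. The Hopx-high libraries lay wholly below naive for 18 of the 43 nucleolar genes, beside 26% of all features. Against Hopx-low cells 3 of 43 were called lower, beside 0.919%, and 16 lay wholly below, beside 10.2%. The median there was -0.42, beside -0.10. RNA polymerase I genes and stand-alone synthases had 0 calls in that comparison, and no list was tested as a set. Nop56, a core protein of C/D particles, was at 95.9, 88.8 and 98.5 in naive libraries, 86.1, 109.6 and 114 in Hopx-low cells and 51.0, 61.7 and 51.4 in Hopx-high libraries. It was lower in Hopx-high cells than in naive (-0.78 ± 0.21, adjusted p = 0.0086) and Hopx-low cells (-0.90 ± 0.21, adjusted p = 0.019). Of 10 snoRNA maturation and turnover genes, the nuclear exosome helicase gene Skiv2l2 was called lower in Hopx-low cells (-1.55 ± 0.45, adjusted p = 0.031) and none in Hopx-high cells. Of all features, 3.64% and 15.1% were called lower in these comparisons with naive. Of 10 tested noncoding snoRNA host genes, 1 was called higher and 1 lower in Hopx-high against naive cells. The median was -0.34, and 8.41% and 15.1% of all features were called. The 1 called higher was Gas5, a noncoding host of C/D snoRNAs. It rose from 639.8, 522 and 309.8 in naive libraries to 1137, 841 and 1282 (1.19 ± 0.24, adjusted p = 0.0016).

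Within each group the libraries ranked alike for most H/ACA snoRNAs. Of the 32, 24 were highest in replicate 1 and 26 lowest in replicate 3 among naive libraries, 25 were highest in replicate 1 among Hopx-low libraries, and 23 were highest in replicate 1 and 31 lowest in replicate 2 among Hopx-high libraries. Replicate 1 was thus the highest library for most snoRNAs in all 3 groups. The median ratio of the highest to the lowest library was 2.04, 1.85 and 3.08 in the naive, Hopx-low and Hopx-high groups, beside 1.52, 1.58 and 1.63 over tested features. The log2 difference between naive replicates 1 and 3 was related across the 32 snoRNAs to that between Hopx-high replicates 1 and 2 (Spearman's rho 0.56, Pearson's r 0.70) and to that between Hopx-low replicates 1 and 2 (0.64 and 0.64), as a description across RNAs of the same libraries. The RNAs that differed most between these replicates tended to be the same from group to group. Length and mean level were not closely related to the fold change in Hopx-high cells (Spearman's rho 0.17 and 0.04, n = 32).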

How the data were processed

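The authors deposited a table of signal per feature for each assay. RNA was depleted of ribosomal RNA and made into Ion Torrent libraries, per the labels' protocols; mm10 and bedtools are named in the submitters' processing notes. Strand setting, aligner, annotation and the handling of multiply mapped reads: not given in the sources used here. A snoRNA and the host gene around it, antisense partners and near-identical copies therefore cannot be told apart. Divided by the column's smallest value, 100% of deposited values came out whole (tolerance 1e-06), as covered bases plus 1, not reads. Levels are these bases per megabase covered in a library; this departs from the planned deposited scale, which is an alternative. Features reaching a level of 1 in 3 or more libraries were tested as log2(level + 1) with limma 3.58.1 (R 4.3.3; trend and robust eBayes) over all 9 libraries of an assay, with Benjamini-Hochberg adjustment, and checked on simulated data. Fold changes are on this scale and understate changes of low features. Python 3.11.15, pandas 2.3.3, numpy 2.4.6 and matplotlib 3.10.9 were used.

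The snoRNAs and gene lists were chosen with earlier results of these data known. Genes named were snoRNAs called in a comparison, the 10 with the highest level, the 4 largest rises and falls of each comparison, their hosts, the H/ACA proteins, telomerase, Hopx, Lars2 and up to 4 called members of each other list. Other snoRNAs and the microRNAs were named after their values were seen. Values of some genes are not reported here.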

Additional observations from a re-analysis of the deposited data

How the results depend on the processing

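The direction of the H/ACA median and of the summed level was the same in every alternative run, in all 3 comparisons. For the median, the settings that leave out no library gave -1.13 to -0.66 in Hopx-low and -1.73 to -0.91 in Hopx-high against naive, and leaving out each library gave -1.29 to -0.71 and -1.95 to -1.21. Between the Hopx groups these were -0.40 to -0.25 and -0.62 to -0.07. Upper-quartile scaling moved the median of all features in Hopx-high cells from -0.29 to -0.09 and gave 2 H/ACA snoRNAs higher (Snora43 the added one) and 10 lower.

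The number of calls moved more. In Hopx-low against naive, 5 became 3 with quantile normalization, 3 without trend or robust settings, 3 at an adjusted p below 0.01, 8 with only the 6 libraries compared, 9 without both Lars2-rich libraries and 2 to 11 with each library left out. In Hopx-high against naive, 17 became 13 with Lars2 left out of the totals and 10 at an adjusted p below 0.01. With each library left out it became 10 to 18 (10 without naive replicate 1, 11 without naive replicate 2). Between the Hopx groups, 0 became 1 without both Lars2-rich libraries (Snora7a) and 0 to 1 with each library left out (Snora30 without Hopx-high replicate 1). With the replicate block the calls were 14, 21 and 2; over all features, the deviations of libraries with the same number had correlations of -0.13 to 0.19, against -0.15 to 0.21 for other numbers. Since not every such correlation was over 0.1, the numbers were not taken as pairs. Between Hopx-low and Hopx-high the same-number correlations were 0.191, 0.141 and 0.061, and those of other numbers ran from -0.149 to 0.057. Replicate 1 was also the highest library for 24, 25 and 23 of 32 H/ACA snoRNAs in the 3 groups. Both are a hint of pairs from the data and not from the design. The cause of these moves was not tested, other than that fewer libraries enter where some are left out.

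For single H/ACA snoRNAs, 1578 of 1712 values kept their side of the threshold, 79 lost a call, 55 gained one and 0 reversed. Of the Hopx-low calls, Snora3 and Snora69 each did not pass an adjusted p of 0.05 under 6 of the settings other than leaving out 1 library. For other named genes these were 3669 of 3947, 239, 39 and 0, and for the 3 microRNAs 77 of 81, 0, 4 and 0. Depth limits the least covered RNAs, Snora19 and Snora20, most. Groups of 3 were not screened for single outlying libraries.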
